A study of Mus musculus with 9 samples.

Results

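Cirbp and Rbm3 encode the cold-inducible RNA-binding proteins. They were chosen by name as a pair, and both were listed in all 3 tables of the series, as 2 of the 16937 genes listed in any table. Each protein carries an RNA recognition motif followed by a glycine- and arginine-rich tail, and each binds mRNAs and alters their translation, stability or splicing. In cultured cells a mild drop in temperature raises both, and heat lowers them, the reverse of the heat shock genes. Brown adipose tissue (BAT) makes heat by uncoupling respiration through Ucp1, so it is a tissue whose own temperature may differ from that of the surroundings.

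The libraries were made from the mRNA of BAT of adult mice on a C57Bl/6J background. WT RT mice were wild type and stayed at 23 °C, the temperature at which all mice were reared. WT Cold mice were wild type and spent 8 h at 4 °C. GCN2 KO Cold mice were given the same cold exposure and lacked Gcn2 (Eif2ak4), the gene of the amino acid-sensing eIF2 kinase GCN2, in the whole body. Males and females were used in the study. The paper states that the sequenced groups held both sexes, and the labels give no sex. Each group had 3 libraries, and no library of the knockout at room temperature was analysed here. WT Cold was set against WT RT (the cold comparison), GCN2 KO Cold against WT Cold (the knockout comparison), and GCN2 KO Cold against WT RT (the combined comparison), to ask how the level of each mRNA differed with cold, with the knockout in the cold, and with both. Letters A, B and C tell the libraries of a group apart and follow the order of the authors' library codes, which are tied to no mouse number.

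The libraries held 27058799 to 30768064 reads on the listed genes. Eif2ak4 was not low in the group labelled GCN2 KO Cold, with 347, 371 and 350 normalized counts there and 171, 225 and 231 in WT Cold, a log2 difference of 0.78 that did not pass (adjusted p = 0.0932, limma). It was lower in WT Cold than in WT RT (log2 difference -0.59, adjusted p = 0.0294, limma). GCN2 KO Cold minus WT RT was 0.19, which did not pass (adjusted p = 0.260, limma). A count over the whole gene cannot show a deletion of some of its exons, and the group is called by its label. For 1 of the 3 samples of this group the title also names WT, and its group was taken from its genotype label. Ucp1, the uncoupling protein of brown adipocytes, was at 3592 to 5273 CPM, the reads of a gene scaled to the total of its library, in WT RT, 7970 to 8995 in WT Cold and 9494 to 9693 in GCN2 KO Cold. Library C of WT Cold and library C of GCN2 KO Cold stood apart from the other 7 in transcripts of the Y chromosome. Ddx3y, an RNA helicase gene of the Y chromosome, was at 7.02 and 10.5 CPM in them and at 84.8 to 144 CPM in the others. Xist, the noncoding RNA that silences an X chromosome, was at 131 and 127 CPM in them and at 11.2 to 43.5 CPM in the others. All 3 WT RT libraries had Ddx3y at 86.8 to 93.4 CPM, so these transcripts were uneven in both comparisons with WT RT. Rbm3 is X-linked, so its results are given with and without library C of the cold groups. WT RT library codes start with other letters than the codes of the cold libraries. No source used here says what these letters stand for, and whatever they mark cannot be told apart from cold in any difference from WT RT.

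Rbm3 (ENSMUSG00000031167) lies on the minus strand of chromosome X from 8138975 to 8145880, and Cirbp (ENSMUSG00000045193) on the plus strand of chromosome 10 from 80165985 to 80172786 (GENCODE M21, GRCm38). The annotation lists 11 transcripts for Rbm3, of which 6 are protein coding, 2 retain an intron and 2 are targets of nonsense-mediated decay, and 7 for Cirbp, of which 2 are protein coding, 4 retain an intron and 1 is a decay target. A count per gene does not separate them. The coding sequences of the principal transcripts are 462 bases long in Rbm3 and 516 in Cirbp, without the stop codon, and 73.3% of the 450 bases that align without a gap are identical. A stretch of 120 coding bases near the start of both is shown because no gap-free stretch of that length in the alignment has more identical bases. It encodes the beginning of the RNA recognition motif. It runs from coding base 7 to 126 in both, and capitals mark the 88 bases that are identical.

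Rbm3: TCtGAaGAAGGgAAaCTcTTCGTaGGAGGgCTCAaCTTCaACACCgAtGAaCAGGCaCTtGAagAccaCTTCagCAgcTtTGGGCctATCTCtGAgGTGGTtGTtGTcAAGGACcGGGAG
Cirbp: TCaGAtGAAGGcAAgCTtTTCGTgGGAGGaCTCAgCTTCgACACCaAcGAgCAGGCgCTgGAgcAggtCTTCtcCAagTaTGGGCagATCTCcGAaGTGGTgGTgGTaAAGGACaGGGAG

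Over the whole of both principal transcripts, the longest run of identical bases was 11, so the 2 messages can be told apart by short stretches even where the proteins are alike. Rbm3 has a processed pseudogene, Rbm3-ps, on chromosome 1 from 150265535 to 150265999. Its 465 bases are 99.4% identical to the Rbm3 transcript, with a shared run of up to 197 bases. The authors counted uniquely placed reads, and Rbm3-ps was listed in 0 of the 3 tables, so reads that fit both places may be missing from the Rbm3 counts of every library. The antisense gene Rbm3os shares 94 exon bases with Rbm3, or 2% of its exon bases, and the library kit does not mark the strand, so reads from these bases cannot be told apart.

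Cirbp is known for a mild cold response element in its promoter, TCCCCGCC, which the zinc finger factor Sp1 binds. RefSeq gives 2 start sites for Cirbp (GRCm38.p6). The upstream part of the first promoter window, chr10:80167589-80167768 on the plus strand, is shown because it holds these letters. The element TCCCCGCC and the GC box GGGCGG, searched on both strands, are in capitals. In GENCODE M21 the gene starts further upstream, at 80165985, and no window at that start was searched.

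Cirbp: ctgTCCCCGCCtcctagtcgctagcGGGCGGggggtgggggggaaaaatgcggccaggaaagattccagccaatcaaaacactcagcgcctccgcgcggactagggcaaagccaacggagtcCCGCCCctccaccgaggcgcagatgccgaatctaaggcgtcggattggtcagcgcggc

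The element TCCCCGCC was found 1 time in the first 300-base window of Cirbp, starting 247 bases before the start site, and 0 times in the second window. It was found in 5.38% of the 32851 promoter windows of this length in the table. GGGCGG was found 3 times in the first window and 4 times in the second, and in 35.7% of all windows. The CCAAT box CCAAT was found 2 times in the first window and 0 times in the second (37.4% of all windows). The cyclic AMP response element TGACGTCA, the heat shock element core GAANNTTC and the E-box CACGTG were found 0 times in either window (1.79%, 7.86% and 7.15% of all windows). None of these motifs overlapped another in the Cirbp windows. A match describes the letters and does not show that a factor binds there.

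Rbm3 was the more abundant member in all 9 libraries. In WT RT it was at 58.5, 76.2 and 54.5 CPM in libraries A, B and C, in WT Cold at 80.8, 69.6 and 82.4 CPM, and in GCN2 KO Cold at 83.9, 67.8 and 74.9 CPM. The means were 63.1 ± 11.5 CPM for WT RT, 77.6 ± 6.93 CPM for WT Cold and 75.6 ± 8.08 CPM for GCN2 KO Cold (SD, n = 3 each). WT RT library B stood above the lowest library of WT Cold and above 2 libraries of GCN2 KO Cold on this scale, and the other 2 WT RT libraries were below all 6 cold ones.

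Cirbp was at 23.5, 22.1 and 19.3 CPM in WT RT, at 16.1, 17.1 and 22.6 CPM in WT Cold and at 18.7, 17.8 and 17.9 CPM in GCN2 KO Cold. The means were 21.7 ± 2.14 CPM, 18.6 ± 3.49 CPM and 18.1 ± 0.463 CPM (SD, n = 3 each). The WT RT mean was thus the highest of the 3 for Cirbp and the lowest for Rbm3, and for both genes the means of the 2 cold groups lay closer together than the SD of WT Cold. WT Cold library C, 1 of the 2 libraries with low Y-linked transcripts, was the only cold library above the lowest WT RT library.

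**Figure D1:**
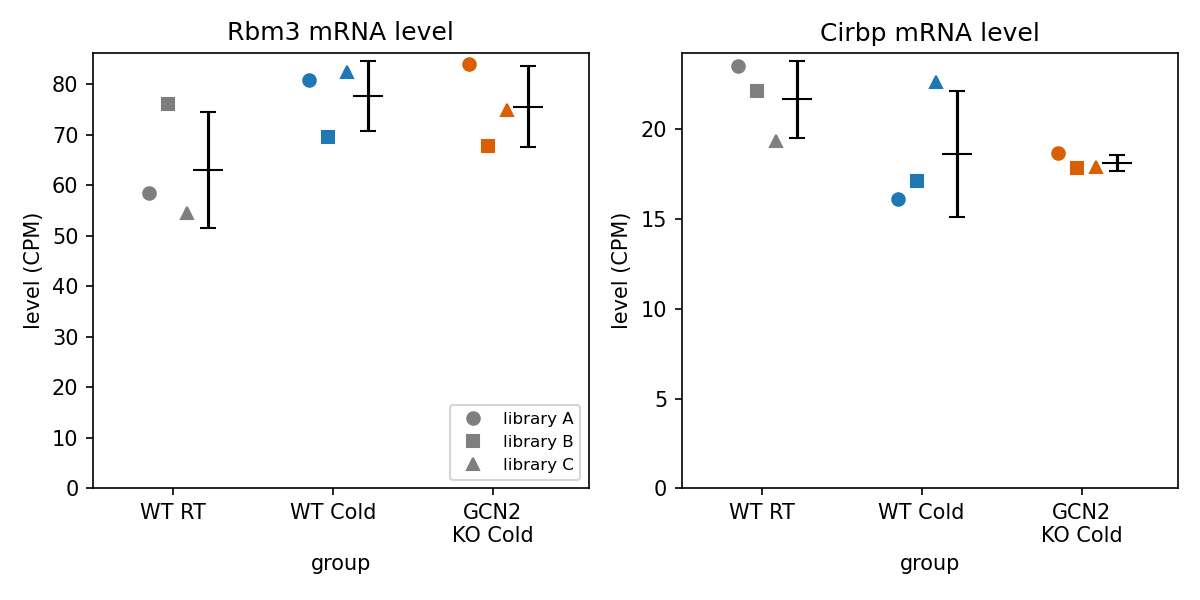
Levels of Rbm3 (left) and Cirbp (right) in CPM (vertical axes from 0) in the 3 libraries of each group. Points are libraries, and black bars are the mean and SD of the group. The Rbm3 means run from 63.1 in WT RT to 77.6 CPM in WT Cold, and the Cirbp means from 18.1 in GCN2 KO Cold to 21.7 CPM in WT RT.

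The counts behind these levels were 1660 to 2371 reads per library for Rbm3 and 467 to 717 for Cirbp. Counting alone gives a coefficient of variation of 2.05 to 2.45% for Rbm3 and of 3.73 to 4.63% for Cirbp. Between libraries of a group, the coefficient of variation of Rbm3 was larger than that, at 18.3% for WT RT, 8.94% for WT Cold and 10.7% for GCN2 KO Cold. For Cirbp it was 9.89% in WT RT and 18.7% in WT Cold, but 2.55% in GCN2 KO Cold, where the 3 libraries lay closer together than the counting error.

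Divided by the length of the exons (4698 bases for Rbm3 and 2604 for Cirbp), the level of Rbm3 was 13.4 ± 2.45, 16.5 ± 1.48 and 16.1 ± 1.72 CPM per kb in WT RT, WT Cold and GCN2 KO Cold (SD, n = 3 each). That of Cirbp was 8.32 ± 0.823, 7.15 ± 1.34 and 6.96 ± 0.178 CPM per kb. Among 36 genes, the members and the 34 other genes named Rbm with a number, Rbm3 ranked 4th per length in WT RT and WT Cold and 5th in GCN2 KO Cold. The spliceosome factor Rbm17, the splicing coactivator Rbm39 and the exon junction component Rbm8a ranked above it in all 3 groups. Cirbp ranked 7th, 8th and 8th. Among 16572 genes with a length, Rbm3 was above 82.9 to 86.0% of genes in level per length and Cirbp above 72.6 to 74.8%.

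The cold comparison asked whether 8 h at 4 °C changed either mRNA in wild type BAT. Rbm3 was higher in WT Cold by 31.5%, and Cirbp did not pass the test. In the normalized counts of that table, which the authors scaled to a common level within the table, Rbm3 was at 1652, 2123 and 1633 in WT RT libraries A, B and C and at 2403, 2111 and 2568 in WT Cold. The groups overlapped, since WT RT library B lay just above WT Cold library B. The log2 difference was 0.39 (SE 0.12, 95% interval 0.11 to 0.68), with an adjusted p of 0.0492 (limma on log2(normalized count + 1), Benjamini-Hochberg over 16679 genes). That is just inside the threshold of 0.05, and Rbm3 did not reach the second threshold of the study, an absolute log2 difference over 1. Of all genes tested in the cold comparison, 13.6% were higher and 14.1% lower at an adjusted p under 0.05, 8.14% passed both thresholds, and 22.8% were higher with no overlap between the groups. With each library scaled to its total (CPM), 1579 genes passed as higher and 2909 as lower, against 2268 and 2356 with the authors' scaling.

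The Rbm3 call did not hold under most alternatives, although all 16 gave a higher level in WT Cold. DESeq2 on the recovered reads kept it (adjusted p = 0.0316), as did the other pseudocounts and the filters on low values. The adjusted p was over 0.05 in 10 of the 16, among them edgeR's quasi-likelihood test on the recovered reads (adjusted p = 0.0589) and CPM scaling (log2 difference 0.31, adjusted p = 0.126). It was also over 0.05 in the limma fits that left out any of the 3 WT Cold libraries or WT RT library A or C (0.0570 to 0.145). Without WT RT library B, the highest of its group, the log2 difference was 0.52 and the adjusted p 0.0212. Without WT Cold library C, which has low Y-linked transcripts, the log2 difference was 0.33 and the adjusted p 0.0818.

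Cirbp had 664, 617 and 580 normalized counts in WT RT and 480, 519 and 705 in WT Cold. WT Cold libraries A and B lay below all 3 WT RT libraries and library C above all 3. The log2 difference was -0.14 (SE 0.15, 95% interval -0.50 to 0.21, adjusted p = 0.513, limma). The interval covers a fall of Cirbp to 0.708 of its WT RT level and a rise to 1.16 of it. The interval of Rbm3, from 1.08-fold to 1.61-fold, overlaps it, so the intervals do not tell the 2 genes apart. Without WT Cold library C the log2 difference was -0.31 (adjusted p = 0.0598, limma), the lowest adjusted p of its 16 alternatives.

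The knockout comparison asked whether the cold levels differed with the knockout, and neither member passed. Rbm3 had 2448, 1990 and 2217 normalized counts in GCN2 KO Cold and 2135, 1889 and 2281 in WT Cold, and the groups overlapped. The log2 difference was 0.077 (SE 0.11, 95% interval -0.17 to 0.33, adjusted p = 0.784, limma). Cirbp had 544, 523 and 529 normalized counts in GCN2 KO Cold and 426, 465 and 626 in WT Cold. The GCN2 KO Cold libraries lay between WT Cold library B and library C, and the log2 difference was 0.093 (SE 0.15, 95% interval -0.26 to 0.44, adjusted p = 0.817, limma). The intervals reach from 0.887-fold to 1.25-fold for Rbm3 and from 0.837-fold to 1.36-fold for Cirbp, and differences within them are not shown to be absent.

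Among all genes of the knockout comparison, 0.178% were higher and 0.227% lower in GCN2 KO Cold at an adjusted p under 0.05, and 0.257% passed both thresholds. The first 2 shares rest on 66 genes, a number that was 526 with DESeq2 and 3 to 24 in limma without 1 library at a time. With CPM scaling 12 genes passed as higher and 77 as lower, against 29 and 37. Under CPM scaling both members turned to the other side of 0, at log2 differences of -0.039 for Rbm3 and -0.023 for Cirbp, while the median of all genes was at -0.09. With library C of both groups left out, chosen after seeing the data, the log2 difference of Rbm3 was 0.14 (adjusted p = 0.640, limma) and that of Cirbp 0.26 (adjusted p = 0.333, limma).

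In the combined comparison both genotype and temperature differ, and its libraries also serve the other comparisons. Rbm3 was 38.9% higher in the libraries of GCN2 KO Cold, and Cirbp did not pass. Rbm3 had 2594, 2120 and 2340 normalized counts in GCN2 KO Cold and 1556, 2002 and 1541 in WT RT. All 3 GCN2 KO Cold libraries lay above all 3 WT RT libraries on this scale, though on the CPM scale WT RT library B lay above 2 of them. The log2 difference was 0.47 (SE 0.12, 95% interval 0.19 to 0.75, adjusted p = 0.0185, limma), under the second threshold of 1. Of all genes in the combined comparison, 16.4% were higher and 17.8% lower at an adjusted p under 0.05, 10.6% passed both thresholds, and 23.7% were higher with no overlap.

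CPM scaling moved the median log2 difference of all genes in this table to -0.15, and the split of genes that passed from 2713 higher and 2944 lower to 1480 and 4837. Rbm3 was then at 0.27 (adjusted p = 0.151, limma), or 0.42 above that median. The adjusted p of Rbm3 was over 0.05 in 7 of 16 alternatives, with the direction kept in all 16. It was over 0.05 without GCN2 KO Cold library A (0.0520) and without WT RT library A (0.0686) or C (0.0657), and it was 0.0452 without GCN2 KO Cold library C. Cirbp had 577, 557 and 559 normalized counts in GCN2 KO Cold and 626, 582 and 547 in WT RT, and the groups overlapped. Its log2 difference was -0.050 (SE 0.095, 95% interval -0.27 to 0.17, adjusted p = 0.711, limma), and with CPM scaling it was -0.24 (adjusted p = 0.0929, limma).

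**Figure D2:**
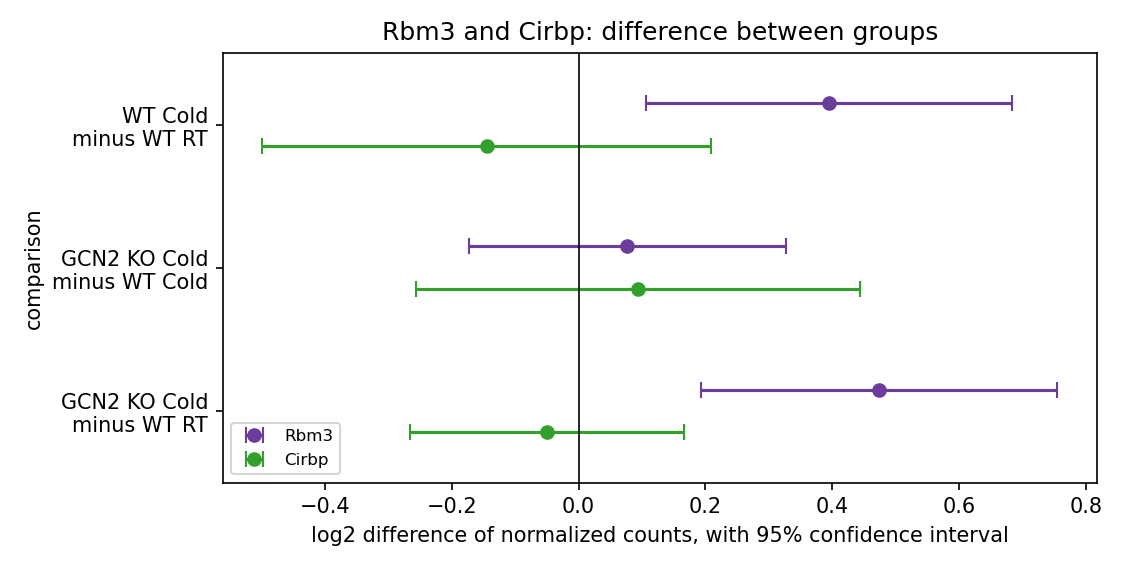
Log2 difference of normalized counts (horizontal axis, first group minus second) with its 95% confidence interval from limma for Rbm3 and Cirbp in the 3 comparisons (vertical axis). The intervals of Rbm3 lie above 0 in both comparisons with WT RT, from 0.11 to 0.68 and from 0.19 to 0.75, and the other 4 intervals include 0.

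The ratio of Rbm3 to Cirbp within a library does not depend on how libraries are scaled. On the log2 scale it was 1.31, 1.78 and 1.49 in WT RT, 2.32, 2.02 and 1.86 in WT Cold and 2.17, 1.93 and 2.07 in GCN2 KO Cold. All 6 cold libraries had a higher ratio than all 3 WT RT libraries. The ratio of the counts was 2.49 to 3.44 in WT RT and 3.64 to 5.01 over both cold groups.

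The mean log2 ratio was 1.53 ± 0.24 for WT RT, 2.07 ± 0.23 for WT Cold and 2.05 ± 0.12 for GCN2 KO Cold (SD, n = 3 each). It exceeded that of WT RT by 0.54 in WT Cold and by 0.52 in GCN2 KO Cold, each at p = 0.1 in a two-sided exact permutation test, the smallest p that 3 against 3 libraries can give (adjusted over the 3 comparisons, 0.15). GCN2 KO Cold minus WT Cold was -0.017 (exact permutation p = 1). That test can therefore not pass a threshold of 0.05 with these group sizes. Leaving out 1 library at a time gave differences of 0.41 to 0.67 for WT Cold and of 0.42 to 0.65 for GCN2 KO Cold against WT RT.

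**Figure D3:**
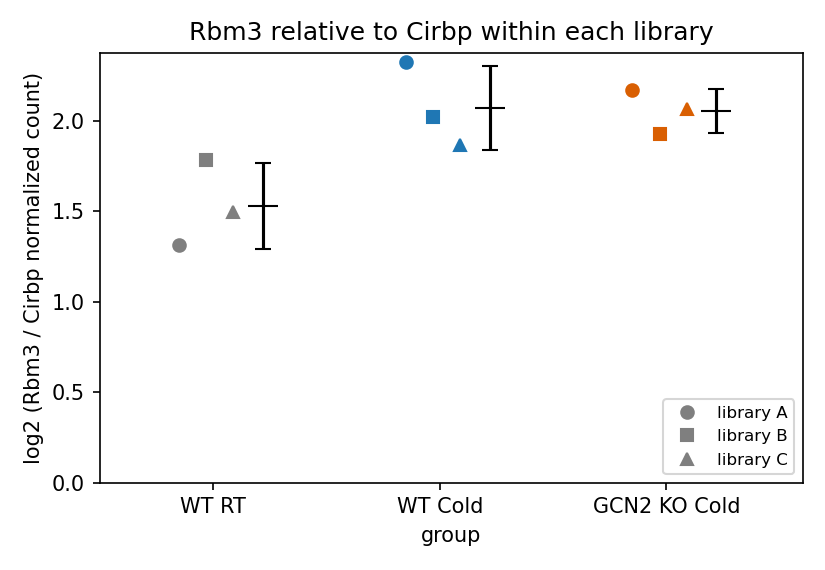
Log2 ratio of the Rbm3 to the Cirbp normalized count (vertical axis from 0) in each of the 9 libraries by group. Points are libraries, black bars the mean and SD, and the 6 cold libraries lie between 1.86 and 2.32, all above the 3 WT RT libraries at 1.31 to 1.78.

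Of the other genes named Rbm with a number, which encode proteins with RNA-binding motifs, 13 of 34 were higher in the cold comparison, 2 were lower and 19 did not pass. The shares higher and lower were 38.2% and 5.88%, against 13.6% and 14.1% of all genes. The median log2 difference of the 34 was 0.24, beside 0.0029 over all genes. The 13 rose by log2 differences of 0.26 to 0.90, so the value of Rbm3 lay within their range. Rbm45, an RNA-binding protein of developing neurons, had the smallest adjusted p, with 915 ± 27.3 normalized counts in WT Cold and 601 ± 49.7 in WT RT (SD, n = 3 each, log2 difference 0.61, adjusted p = 0.00352, limma). Rbm46, known from germ cells, passed both thresholds as lower at low counts, 7.35 ± 3.10 against 19.9 ± 4.38 (SD, n = 3 each, log2 difference -1.37, adjusted p = 0.0446, limma). With CPM scaling 7 of the 34 passed as higher and 2 as lower, where 9.47% and 17.4% of all genes did.

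Of 33 such genes in the knockout comparison, 0 passed with limma and 0 with edgeR. DESeq2 called 2 as lower, CPM scaling 1 and the fit of all 3 groups 3 (of 34). In limma 7 had an unadjusted p under 0.05, all of them lower in GCN2 KO Cold. The shares of all genes called lower there were 0.227% with limma, 0.159% with edgeR, 1.80% with DESeq2, 0.472% with CPM scaling and 2.27% with all 3 groups. Rbm38, which binds the mRNA of the cell cycle inhibitor Cdkn1a, had the smallest adjusted p there, with 266 ± 52.4 normalized counts in GCN2 KO Cold and 530.0 ± 53.1 in WT Cold (SD, n = 3 each, log2 difference -1.01, adjusted p = 0.0616, limma). The combined comparison gave 11 of 34 higher and 2 lower, or 32.4% and 5.88% against 16.4% and 17.8% of all genes, and CPM scaling gave 2 higher and 6 lower. That scaling moved the median of all genes to -0.15 and the shares of all genes to 8.94% higher and 29.2% lower, and the median of the Rbm genes lay 0.18 above that of all genes with the authors' scaling and 0.14 above it with CPM. Rbm45 again had the smallest adjusted p, at a log2 difference of 0.75 (adjusted p = 0.00104, limma), and Rbm46 was at 4.07 ± 1.60 normalized counts in GCN2 KO Cold and 18.8 ± 4.13 in WT RT (SD, n = 3 each, adjusted p = 0.00931, limma).

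The heterogeneous nuclear ribonucleoproteins and the relatives of Rbmx and Tra2b, which share the RNA recognition motif, gave 5 higher and 0 lower of 15 tested in the cold comparison, or 33.3% and 0%, against 13.6% and 14.1% of all genes, with a median log2 difference of 0.083. Hnrnph2, a splicing regulator, had the smallest adjusted p, with 2655 ± 157 normalized counts in WT Cold and 1887 ± 98.8 in WT RT (SD, n = 3 each, log2 difference 0.49, adjusted p = 0.00401, limma). The combined comparison gave the same counts, 5 higher and 0 lower, against 16.4% and 17.8% of all genes, and there Hnrnph2 had a log2 difference of 0.41 (adjusted p = 0.00372, limma). With CPM scaling the counts were 2 higher and 1 lower in the cold comparison, where 9.47% and 17.4% of all genes passed, and 0 higher and 6 lower in the combined one, where 8.94% and 29.2% did. In the combined comparison the list median lay above that of all genes by 0.15 with the authors' scaling and by 0.11 with CPM. In the knockout comparison 0 of the 15 passed with limma, edgeR or DESeq2, and 0 had an unadjusted p under 0.05 in limma, and the smallest adjusted p was that of Hnrnpa2b1 (log2 difference 0.16, adjusted p = 0.496, limma).

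Proteins with a cold shock domain, an RNA- and DNA-binding fold shared with the cold shock proteins of bacteria, did not move one way. Of 6 tested, 1 was higher and 2 were lower in the cold comparison, or 16.7% and 33.3% against 13.6% and 14.1% of all genes. Carhsp1, which stabilizes mRNA, had 2815 ± 64.9 normalized counts in WT Cold and 4907 ± 263 in WT RT (SD, n = 3 each, log2 difference -0.80, adjusted p = 0.000430, limma). Ybx2, a Y-box protein that also binds mRNAs of the thermogenic program, fell by 0.97 on the log2 scale (adjusted p = 0.00114, limma), and Ybx3, another Y-box protein, rose by 0.40 (adjusted p = 0.00902, limma). Carhsp1 and Ybx2 were also lower in the combined comparison, at log2 differences of -0.50 and -0.95 (adjusted p = 0.00640 and 0.00250, limma). The knockout comparison called 0 of the 6 with limma and with edgeR and 1, as lower, with DESeq2. Of all genes, 0.227% were lower there with limma, 0.159% with edgeR and 1.80% with DESeq2. In limma 2 of the 6 had an unadjusted p under 0.05, and Ybx3 was closest (log2 difference -0.33, adjusted p = 0.130, limma).

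CDC-like kinases and SR proteins form a splicing switch that senses body temperature, and the splicing of U2af1l4 follows it. Of 19 entries tested for this list, 5 were higher and 0 lower in the cold comparison, and 4 were higher and 1 lower in the combined comparison. These are 26.3% and 0% against 13.6% and 14.1% of all genes, and 21.1% and 5.26% against 16.4% and 17.8%. U2af1l4 has 2 gene identifiers among the 19, whose reads may be split between them. The entry ENSMUSG00000109378 is counted as higher in both comparisons (cold log2 difference 0.78, adjusted p = 0.0372, limma). The entry ENSMUSG00000078765 passed in neither (cold log2 difference 0.12, adjusted p = 0.691, limma). Srsf6, an SR splicing factor, had 3455 ± 145 normalized counts in WT Cold and 2734 ± 15.2 in WT RT (SD, n = 3 each, log2 difference 0.34, adjusted p = 0.00893, limma), and its log2 difference in the combined comparison was 0.39 (adjusted p = 0.00276, limma). With CPM scaling the counts were 2 higher and 0 lower in the cold comparison, where 9.47% and 17.4% of all genes passed, and 2 higher and 3 lower in the combined one, where 8.94% and 29.2% did. The SR protein kinase gene Srpk3 was closest in the knockout comparison, where 0 of 19 passed with limma, edgeR and DESeq2 and 2 had an unadjusted p under 0.05 in limma (log2 difference -0.66, adjusted p = 0.256, limma).

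Heat shock genes encode Hsf1 and the chaperones that rise with heat. Of 20 tested, 7 were higher and 2 lower in the cold comparison, or 35% and 10% against 13.6% and 14.1% of all genes, with a median log2 difference of 0.37. Hspa8, the constitutive chaperone of the cytosol, had a log2 difference of 1.36 (adjusted p = 0.00709, limma), and Bag3, a partner of such chaperones, one of 1.18 (adjusted p = 0.000591, limma). The inducible chaperone genes Hspa1a and Hspa1b, near-identical copies whose reads may be split between them, had log2 differences of 1.51 and 1.04 (adjusted p = 0.00475 and 0.00712, limma). These 4 passed both thresholds.

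In the combined comparison 9 of the 20 heat shock genes were higher and 2 lower, or 45% and 10% against 16.4% and 17.8% of all genes. Hspa8 had a log2 difference of 1.51 (adjusted p = 0.000163, limma) and Hspe1, the co-chaperonin of mitochondria, one of 1.18 (adjusted p = 0.000298, limma). Hspa1a had 108 ± 51.3 normalized counts in GCN2 KO Cold and 161 ± 28.1 in WT RT (SD, n = 3 each, adjusted p = 0.139, limma). Cryab, a small heat shock protein of muscle and lens, was lower in GCN2 KO Cold, at log2 differences of -1.57 in the knockout comparison (adjusted p = 0.0439, limma), as 1 of 20 there, and of -1.20 in the combined comparison (adjusted p = 0.000908, limma). In the knockout comparison edgeR also called 1 of the 20 as lower, DESeq2 called 3 and limma with CPM scaling 2. The shares of all genes called lower there were 0.227% with limma, 0.159% with edgeR, 1.80% with DESeq2 and 0.472% with CPM scaling. Hspa1a had a log2 difference of -2.16 there, which did not pass (adjusted p = 0.0653, limma). The summed level of 10 skeletal muscle markers, such as Acta1, the actin of skeletal muscle, was 249 to 1148 CPM in GCN2 KO Cold, 1988 to 3307 CPM in WT Cold and 2165 to 2628 CPM in WT RT, with 1 of the 10 lower in the knockout comparison and 9 of 10 in the combined one, where 0.227% and 17.8% of all genes were lower. No marker was at 0. The part of muscle in the results of Cryab and of the Rbm genes was not tested. In these bulk libraries, fewer cells of a type and less RNA per cell cannot be told apart. With CPM scaling the heat shock counts were 7 higher and 2 lower in the cold comparison, against 9.47% and 17.4% of all genes, and 8 higher and 4 lower in the combined one, against 8.94% and 29.2%.

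Among the genes known to control or handle the members, which were Sp1, its relative Sp3, the nuclear import receptor Tnpo1, the arginine methyltransferase Prmt1 and the kinase Gsk3b, 0 of 5 passed in the cold comparison with limma, edgeR and DESeq2, 1 had an unadjusted p under 0.05 in limma, and with CPM scaling 1 passed as lower. Of all genes, 14.1% were lower there, and 17.4% with CPM scaling. Tnpo1 had 1963 ± 154 normalized counts in WT Cold and 2347 ± 209 in WT RT (SD, n = 3 each, log2 difference -0.26, adjusted p = 0.0812, limma). It passed in the combined comparison, as 1 of the 5, with a log2 difference of -0.35 (adjusted p = 0.0138, limma), and with CPM scaling 4 of the 5 passed there as lower. Of all genes, 17.8% were lower there, and 29.2% with CPM scaling. Sp1 had the smallest adjusted p in the knockout comparison, where 0 of 5 passed with limma, edgeR and DESeq2 and 1 had an unadjusted p under 0.05 in limma (log2 difference -0.29, adjusted p = 0.245, limma).

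Of 5 mRNAs on whose translation or stability Cirbp or Rbm3 is known to act, Hif1a, the oxygen-sensing transcription factor, was higher in the cold comparison, and Rpa2, a subunit of the single-stranded DNA-binding complex, was lower. Hif1a had 2579 ± 78.1 against 2039 ± 127 normalized counts (SD, n = 3 each, log2 difference 0.34, adjusted p = 0.0142, limma). Rpa2 had 118 ± 20.2 against 238 ± 57.1 (SD, n = 3 each, log2 difference -0.99, adjusted p = 0.0152, limma). DESeq2 and edgeR each called 2 of the 5 as higher and 1 as lower in the cold comparison. Of all genes, 14.9% were higher and 14.7% lower there with DESeq2, and 13.5% and 14.1% with edgeR. The combined comparison gave 2 higher and 1 lower, with Hif1a at a log2 difference of 0.38 (adjusted p = 0.00887, limma) and Rpa2 at -1.11 (adjusted p = 0.00438, limma), and 0 higher and 1 lower with CPM scaling, where 8.94% and 29.2% of all genes passed. The counts on the authors' scaling are 20% higher and 20% lower against 13.6% and 14.1% of all genes in the cold comparison, and 40% and 20% against 16.4% and 17.8% in the combined one. In the knockout comparison 0 of 5 passed with limma, edgeR and DESeq2 and 0 had an unadjusted p under 0.05 in limma, with the endoplasmic reticulum gene Rtn3 closest (log2 difference 0.19, adjusted p = 0.370, limma).

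CIRBP that leaves cells acts on receptors of immune cells, of which Ly96, Tlr4 and Il6ra were tested. In the cold comparison Ly96, the co-receptor of Tlr4, rose (log2 difference 0.69, adjusted p = 0.0134, limma), Tlr4 itself fell (-0.72, adjusted p = 0.0343, limma) and the interleukin-6 receptor gene Il6ra rose (0.96, adjusted p = 0.0214, limma), where 13.6% of all genes were higher and 14.1% lower. In the combined comparison Ly96 was at 1.09 (adjusted p = 0.00208, limma) and Tlr4 at -1.02 (adjusted p = 0.00335, limma), while Il6ra, at 0.17, did not pass and its groups overlapped (adjusted p = 0.279, limma). The summed level of 8 leukocyte markers was 114 to 196 CPM in WT RT, 41.2 to 66.5 CPM in WT Cold and 30.8 to 48.7 CPM in GCN2 KO Cold, with 4 of 8 lower in the cold and 5 of 8 in the combined comparison, where 14.1% and 17.8% of all genes were lower. Cd3e, the marker of T cells, was at 0.138 to 0.689 CPM in all 9 libraries. The part of leukocytes in the Tlr4 result was not tested. The knockout comparison called 0 of the 3 receptors with limma and with edgeR and 1, as lower, with DESeq2. The shares of all genes lower there were 0.227% with limma, 0.159% with edgeR and 1.80% with DESeq2. In limma 2 of the 3 had an unadjusted p under 0.05, and Il6ra was closest (log2 difference -0.79, adjusted p = 0.199, limma).

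**Figure D4:**
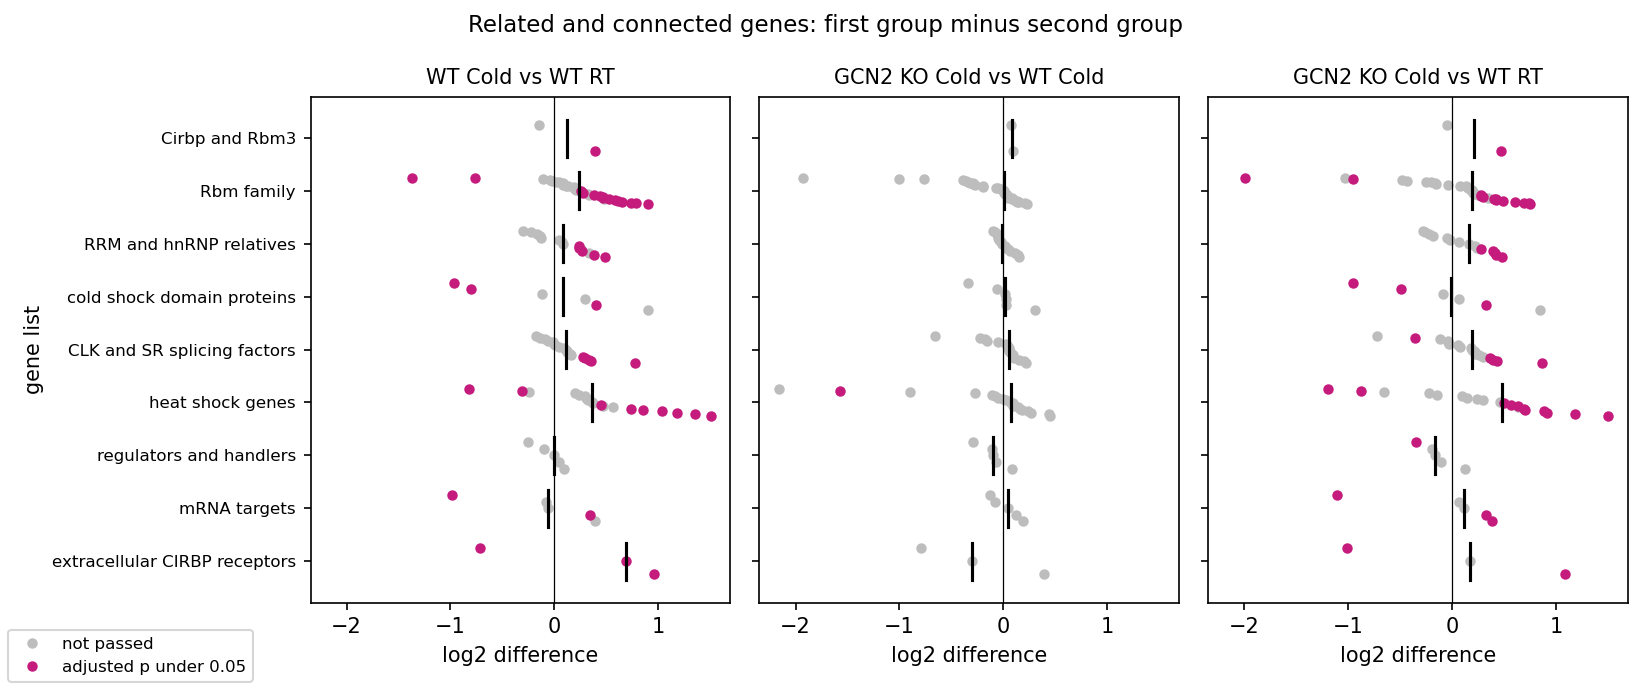
Log2 difference (horizontal axes, first group minus second) of every tested gene of 9 lists (vertical axis) in the 3 comparisons. Each point is a gene, coloured where its adjusted p was under 0.05, and black bars are list medians. In the cold comparison 13 of 34 Rbm genes and 7 of 20 heat shock genes were coloured on the higher side.

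Red blood cell markers (Hba-a1, Hba-a2, Hbb-bs and Hbb-bt) also moved with the cold groups, with 4 of 4 higher in the cold and the combined comparisons, against 13.6% and 16.4% of all genes, at a summed 253 to 334 CPM in WT RT, 557 to 2225 in WT Cold and 1068 to 2037 in GCN2 KO Cold. Endothelial markers summed to 476 to 529, 560 to 695 and 450 to 551 CPM, and Schwann cell markers to 57.2 to 76.6, 69.6 to 71.6 and 45.6 to 46.9 CPM in the same order. The 8 brown adipocyte markers summed to 18000 to 19752, 23731 to 25766 and 27901 to 28249 CPM. They did not all rise, with 3 higher and 1 lower in the cold comparison (37.5% and 12.5%, against 13.6% and 14.1% of all genes). The combined comparison had 5 higher and 0 lower (62.5% and 0%, against 16.4% and 17.8%). The part of these cell types in the levels of Rbm3 and Cirbp was not tested.

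Likeness of pattern was measured as the Pearson r of log2(CPM + 1) over the 9 libraries, among 8607 genes in all 3 tables with a mean of at least 10 CPM. These values are descriptions over 9 points in 3 groups. The patterns most like that of Rbm3 were those of Zbtb22 (r = 0.96), the splicing factor Sf3b4 (0.94), the translation initiation helicase Eif4a1 (0.90), the exosome cofactor gene Zcchc7 (0.89) and the splice site factor U2af1 (0.89). The most opposite were those of Hdhd2 (-0.89), Bcs1l (-0.87), Wdr13 (-0.86), Polr2m (-0.86) and Uqcc1 (-0.85).

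For Cirbp the most alike were Pxmp4, a gene of the peroxisome membrane (r = 0.96), Smpd2 (0.94), 4833420G17Rik (0.93), the presenilin gene Psen2 (0.93) and Tmem50a (0.92). The most opposite were E2f6 (-0.95), the chaperone cofactor gene Chordc1 (-0.95), the thioredoxin reductase gene Txnrd1 (-0.94), BC024978 (-0.94) and Trp53inp2 (-0.94). Chordc1 is also in the list of heat shock genes. Rbm3 and Cirbp themselves had r = -0.20 over the 9 libraries, and neither was among the genes most like or most opposite to the other.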

How the data were processed

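RNA of BAT from 9 mice was sequenced (NEBNext Ultra II kit, poly(A) selection). The authors trimmed reads (Trimmomatic 0.36), aligned them (STAR 2.5.2b), counted unique exon reads (featureCounts of Subread 1.5.2) and compared groups with DESeq2. The submitters' processing notes name GRCm39, whose coordinates are not used here. Each of 3 deposited tables holds, for 6 libraries, a signal per gene, which is its read count after division by the library's size factor in that table. The authors' fold changes and p-values in them were not used. Whole reads were recovered from 100% of the deposited values (tolerance 0.01 read), and 0 columns came from other samples. Columns carry library codes without mouse numbers, and were tied to groups by the tables they stand in.

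Groups were compared within each table with limma 3.58.1 (R 4.3.3) on log2(value + 1), with a mean-variance trend, the 2 groups in the fit and two-sided p-values adjusted by Benjamini-Hochberg over all genes of the table, which understates the change of low genes. A gene passed at an adjusted p under 0.05, and the study's second threshold is an absolute log2 difference over 1. DESeq2 1.42.0 and edgeR 4.0.16 on recovered reads were alternatives, with pseudocounts, filters, scaling, adjustment and libraries left out. Levels across tables are CPM. On simulated counts for these tables, limma recovered 77, 71 and 77% of genes changed by a log2 of 1 in the cold, knockout and combined comparisons. The same runs gave 14, 10 and 14 false calls. Changes as small as those measured for the members were not simulated.

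Beside the members, the rule named list genes that passed both thresholds in any comparison and the gene with the smallest adjusted p of each list and comparison. It also named the 5 genes most like and most opposite to each member, and genes overlapping them. Rbm3os and Rbm3-ps were looked up by name. The annotation was not searched by position for other genes that overlap Rbm3 or Cirbp. For the lists of cell type markers and of sex chromosome transcripts, summed levels or a few genes are given. The members and lists were chosen with earlier results of these data known. The labels call the samples of a group biological replicates. Sequences were read from GENCODE M21 and RefSeq (GRCm38), and 1 of the 2 members matched the promoter table.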

Additional observations from a re-analysis of the deposited data

How the results depend on the processing

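No paired analysis was possible because the table columns carry library codes and no replicate numbers. In the cold comparison Rbm3 was higher in all 16 alternatives, with the adjusted p over 0.05 in 10. Its log2 difference was 0.38 with edgeR, 0.31 with CPM scaling, 0.31 with all 3 groups in the fit, and 0.39 without the trend and with Bonferroni adjustment. It was 0.33 to 0.52 without 1 library at a time. In the combined comparison it was higher in all 16, with the adjusted p over 0.05 in 7. Its log2 difference was 0.27 with CPM scaling and with all 3 groups, 0.47 without the trend and with Bonferroni, and 0.40 to 0.60 without 1 library. The direction turned only where no call was made. In the knockout comparison CPM scaling and the fit of all 3 groups gave -0.039 for Rbm3 and -0.023 for Cirbp, and leaving out 1 library gave 0.0021 to 0.15 for Rbm3 and -0.020 to 0.26 for Cirbp (-0.020 without WT Cold library A). Cirbp in the combined comparison was at -0.10 to 0.00024 without 1 library, the last without WT RT library A. These fits take the libraries left in a group of 2 to vary like the rest, and the cause of the changes was not tested.

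Over all genes, the count at an adjusted p under 0.05 was 4624, 66 and 5657 in the cold, knockout and combined comparisons. It was 129, 5 and 202 with Bonferroni adjustment. In the knockout comparison it was 526 with DESeq2, 44 with edgeR, 433 with all 3 groups in the fit, 6 without the trend, 168 without library C of both groups and 3 to 24 without 1 library. In the cold comparison it was 2907 to 5679 without 1 library. Of 735 alternative counts for 45 results on lists, 594 were within 1.5 times the main count and 141 were not. The counting error in a library was larger for Cirbp, at up to 4.63%, than for Rbm3, at up to 2.45%.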
